A study of Mus musculus with 40 samples.

Results

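Collagen genes code for the chains of the triple-helical proteins of the extracellular matrix. The members described here are the protein-coding genes of the deposited count tables whose symbol names a collagen chain (Col, a type number, the letter a and a chain number) and whose mean level reached 0.2 CPM (counts scaled to the same library total) in the tissue. Each table held 44 genes of the family among 55335 genes for the aorta and 55382 for the kidney. The rule kept 31 chains in the aorta and 28 in the kidney, 34 in either tissue and 25 in both. The aortic member nearest above the limit was Col13a1 at 0.207 CPM, and the highest chain left out was Col17a1 at 0.0652 CPM. In the kidney the same positions were held by Col9a3 at 0.324 CPM and Col28a1 at 0.121 CPM.

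The study asked how deletion of the epidermal growth factor receptor gene (Egfr) in endothelial cells and a high fat diet (HFD) alter gene expression in whole mouse aorta and kidney. KO mice were EGFR flox/flox, with a deletable stretch that includes exon 1, and carried Tek-cre, a transgene driven by the Tie2 promoter. WT controls carried the same Cre transgene without loxP sites, so all 40 libraries came from Cre-positive mice on a C57BL/6 background. From 6 weeks of age mice received HFD, with 60% of energy as fat, or the standard fat diet (SFD), with 10%, for 18 weeks, and each of the 4 groups of genotype and diet had 5 libraries per tissue. The Tie2 promoter is active from embryonic life and in part of the blood cell lineage, and endothelium is a minor part of both organs, so the libraries measure whole-organ RNA. In such RNA, fewer cells of a type and less RNA per cell cannot be told apart.

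Fibrillar collagens such as types I, III and V form the tension-bearing fibres of the vessel wall and of connective tissue, and different chains often share a triple helix. Type IV chains form the sheet-like network of basement membranes. The chains a3, a4 and a5 of type IV make the network of the glomerular basement membrane, the filter of the kidney. Fibril-associated collagens sit on the surface of fibres, type VI forms beaded filaments, type VIII a hexagonal lattice first known from vessel walls and cornea, and types XV and XVIII, the multiplexins, lie at the border between basement membrane and stroma.

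Totals ranged from 17520161 to 36452741 counts per aortic library and from 19643033 to 48833447 per renal library. Levels are given as FPM, which is CPM with the library total scaled by the trimmed mean of M values (TMM) within a tissue. The targeted gene did not separate the genotypes: Egfr lay at 29.9 to 54.2 FPM in aortas of WT SFD mice and at 37.6 to 50.01 FPM in those of KO SFD mice, and renal Egfr at 49.3 to 64.5 and 47.8 to 57.6 FPM. Library R-1 (WT SFD) and library R-12 (KO SFD) of the aorta differed by less than sampling noise, with a median chi-square of 0.0277 over genes against 0.455 for noise and 1.60 for the next closest pair. Renal libraries a12 (WT HFD) and a1 (KO HFD) did the same, with 0.0269 against 1.62 for the next closest pair. Since each pair spans the genotype labels, its libraries could not be averaged within 1 group; they were kept in the tests, and values without both are given where a call changes. Even independent samplings of the same RNA would differ by about the noise value, so the libraries of a pair are not independent. They cannot be separate animals of both genotypes, and which label is right cannot be told here. Each n below counts these libraries separately. An n that covers both libraries of a pair therefore counts 1 too many, and a group holding either may include an animal of the other genotype. Of the 44 chains, 8 had 0 counts in every library: Col4a5 and Col4a6 on chromosome X, and Col5a3, Col6a4, Col6a5, Col6a6, Col7a1 and Col12a1 on chromosome 9. All 2842 genes of chromosome 9 and all genes of chromosomes X and Y and of the mitochondrion stood at 0 in both tables, so these chains were not measured here.

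In the aorta the collagen members together took 1.36% of all counts, and in the kidney 0.134%. These totals hold no counts of chromosomes 9, X and Y or of the mitochondrion. The shares of the classes below likewise leave out the chains that were not measured. Fibrillar chains led the aortic sum with 53.7% of the members' FPM, followed by the multiplexins with 16.7%, type IV with 13.6% and type VI with 12.4%. The renal order differed. Type IV chains made up 55.7%, fibrillar chains 22.8%, multiplexins 12.1%, fibril-associated chains 5.28%, type VI 2.78% and type VIII 0.709%.

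Levels between genes are compared per kilobase of annotated exon (FPM per kb). The highest aortic level was that of Col18a1, whose C-terminal fragment is endostatin, with 274 ± 69.6 FPM per kb (SD, n = 20). Col3a1 followed with 238 ± 46.2, Col1a1 with 213 ± 72.1, Col1a2 with 212 ± 57.9, Col4a1 with 142 ± 44.5 and Col6a1 with 137 ± 14.6 FPM per kb. Neighbours in this order overlapped in their ranges. The same 6 chains led when the longest coding transcript was used as length, but Col1a2 then stood first with 492 FPM per kb.

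The 6 highest renal chains were 5 chains of basement membranes and their border and 1 fibrillar chain. Col4a1 reached 23.7 ± 5.10 FPM per kb (SD, n = 20), Col4a4 23.5 ± 3.95, Col18a1 20.3 ± 3.06, Col4a3 19.7 ± 5.97 and Col4a2 18.7 ± 3.52. Col27a1, a fibrillar chain best known from cartilage, reached 14.7 ± 5.601 FPM per kb, above Col1a2 with 3.23, Col3a1 with 2.93 and Col1a1 with 2.22. With the longest coding transcript as length the same 6 chains led, but Col27a1 then held rank 3 with 25.2 FPM per kb. Col27a1 alone made up 61.6% ± 10.7 (SD, n = 20) of the renal fibrillar FPM and 0.613% ± 0.175 of the aortic.

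**Figure D1:**
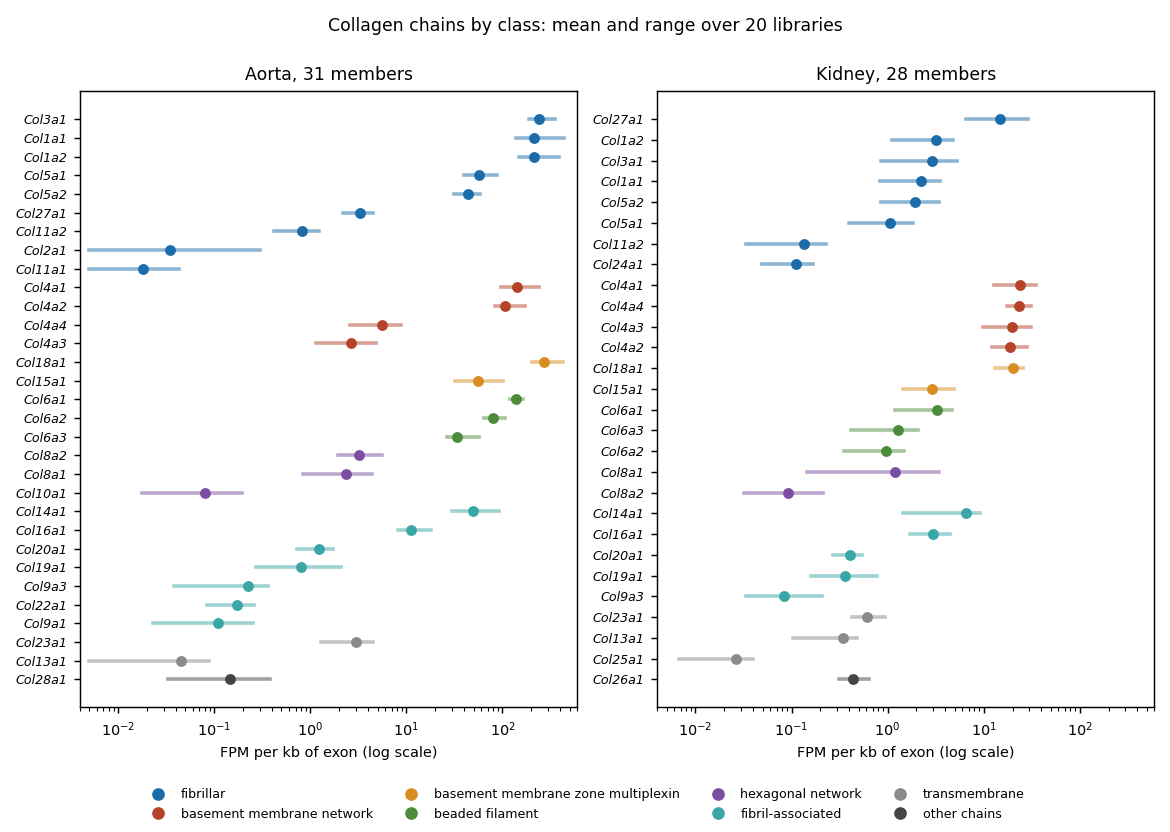
Mean level (points) and range over 20 libraries (bars) of every member, in FPM per kb of exon on a log axis, coloured by collagen class, for 31 chains in the aorta and 28 in the kidney; ranges that reach 0 run to the left edge. Types I and III and Col18a1 stand highest in the aorta, and in the kidney the 4 type IV chains, Col18a1 and Col27a1 do.

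Chains that share a triple helix were compared per kb, first by exon length and then by the longest coding transcript. The ratio of Col1a1 to Col1a2, the chains of type I collagen, was 0.994 ± 0.0733 in the aorta and 0.683 ± 0.0949 in the kidney (SD, n = 20). With transcript lengths it was 0.473 and 0.325, so its value depended on the annotation. The ratio of Col4a1 to Col4a2 was 1.32 ± 0.133 in the aorta and 1.26 ± 0.0868 in the kidney. With transcript lengths it was 1.45 and 1.39. Col4a3 to Col4a4 gave 0.461 ± 0.0679 in the aorta and 0.819 ± 0.133 in the kidney, or 0.511 and 0.909 with transcript lengths. Col4a3 and Col4a4 together were 59.5% of the FPM of the 4 measured type IV chains in the kidney and 4.63% in the aorta. Col4a5 and Col4a6 were not measured.

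Comparing the 5 WT SFD aortas with the 5 WT SFD kidneys in 1 edgeR fit, 28 of 29 tested members differed at an adjusted p under 0.05, against 73.3% of the 15672 genes tested. Of these, 22 were higher in the aorta and 6 in the kidney. FPM in this comparison were scaled by TMM over the 10 libraries of both tissues together, so they differ from the within-tissue FPM given elsewhere for the same libraries. The aortic excess was greatest for Col1a1, with 1400 ± 758 jointly scaled FPM against 12.0 ± 6.65 (SD, n = 5), a log2 difference of 6.86 ± 0.51 (SE, adjusted p = 1.22e-07). Col3a1 followed with a difference of 6.67 ± 0.43, the type VI chain Col6a2 with 6.50 ± 0.32 and Col1a2 with 6.17 ± 0.46, all on the log2 scale. These are chains of the load-bearing fibres and of the filaments around cells.

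The 6 chains higher in the kidney were Col27a1, Col4a4, Col13a1, Col4a3, Col24a1 and Col26a1. On the same joint scale, Col4a3 stood at 224 ± 63.8 FPM in the kidney against 23.9 ± 13.4 in the aorta (SD, n = 5), a log2 difference of -3.22 ± 0.36 (edgeR, adjusted p = 5.70e-06). Col27a1 stood at 157 ± 39.0 FPM against 36.6 ± 10.0, a log2 difference of -2.10 ± 0.21. Col24a1, another fibrillar chain, was at 1.14 ± 0.155 FPM in the kidney and 0.0139 FPM in the aorta. Col26a1, was at 3.95 FPM in the kidney and had 0 counts in the 5 aortas, where 3 counts over the group would be 0.0248 FPM on the within-tissue scale. Col19a1 was the member not called, with a log2 difference of 0.16 ± 0.44 (edgeR, adjusted p = 0.757). The tables were deposited per tissue, so tissue and any separate processing cannot be told apart.

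The HFD changed a set of renal collagen chains in both genotypes. Averaged over genotypes, 7 of 27 tested members passed an adjusted p under 0.05, beside 16.4% of the 15943 renal genes tested: Col8a1, Col27a1, Col3a1 and Col18a1 rose, Col5a2, Col16a1 and Col19a1 fell, and 20 did not pass. In GRCm38 the genes that rose lie at chr16:57624258-57754737 (Col8a1), chr4:63214004-63334991 (Col27a1), chr1:45311538-45349706 (Col3a1) and chr10:77052178-77166548 (Col18a1). Those that fell lie at chr1:45374321-45503282 (Col5a2), chr4:130047840-130099283 (Col16a1) and chr1:24261890-24587472 (Col19a1). At an unadjusted p under 0.05 the count was 11 of 27, beside 29.9% of all genes. The median log2 fold change was 0.15 over the 27 members and 0.00 over all genes (-0.0012). In WT mice 4 members passed (2 up, 2 down) beside 6.71% of genes, and 9 passed unadjusted beside 19.4%. In KO mice 5 passed (2 up, 3 down) beside 6.34% of genes, and 5 passed unadjusted beside 19.5%. Members' shares of 7 in 27, 4 in 27 and 5 in 27 exceed these backgrounds by few genes, and no test of the list was made.

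The start regions of Col8a1 and Col27a1, the chains with the greatest renal rise, are shown here, each as 300 bases 5′ to 3′ on the gene's strand, from 250 bases before to 50 bases from the start site (RefSeq, GRCm38.p6). The Col8a1 window is chr16:57754688-57754987 on the minus strand and the Col27a1 window chr4:63215162-63215461 on the plus strand. Capitals mark the GC box GGGCGG on either strand (CCGCCC on the other), of which the Col8a1 window holds 4 and the Col27a1 window 2.
Col8a1: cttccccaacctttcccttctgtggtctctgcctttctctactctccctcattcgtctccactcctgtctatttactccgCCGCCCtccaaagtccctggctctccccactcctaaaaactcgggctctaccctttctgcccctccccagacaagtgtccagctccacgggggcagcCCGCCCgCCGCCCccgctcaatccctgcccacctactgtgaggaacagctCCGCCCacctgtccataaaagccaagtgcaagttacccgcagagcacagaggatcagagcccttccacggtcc
Col27a1: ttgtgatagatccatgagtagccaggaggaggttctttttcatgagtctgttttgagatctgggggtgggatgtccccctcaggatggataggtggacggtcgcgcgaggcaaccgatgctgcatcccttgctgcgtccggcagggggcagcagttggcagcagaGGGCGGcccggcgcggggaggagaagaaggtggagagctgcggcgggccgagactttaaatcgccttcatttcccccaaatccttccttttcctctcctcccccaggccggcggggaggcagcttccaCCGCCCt
The GC box stood in 35.7% of all 32851 promoter windows of this length and in 15 of the 29 windows of 26 members with an entry. Such a match is a description of letters, not of a site in use. Col5a2 had no entry.

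Col8a1, one of the chains of type VIII collagen, a product of smooth muscle, endothelial and mesangial cells, showed the widest response. In WT SFD kidneys (a16 to a20) it measured 1.398, 3.48, 6.08, 4.64 and 5.05 FPM, and in WT HFD kidneys (a11 to a15) 10.5, 15.9, 15.4, 11.5 and 22.9 FPM. KO SFD kidneys (a6 to a10) measured 1.93, 2.19, 3.40, 1.13 and 3.14 FPM, and KO HFD kidneys (a1 to a5) 16.01, 13.1, 15.1, 8.24 and 26.6 FPM. All 10 HFD libraries stood above all 10 SFD libraries. Mean levels went from 4.13 ± 1.79 to 15.3 ± 4.90 FPM in WT and from 2.36 ± 0.923 to 15.8 ± 6.74 FPM in KO (SD, n = 5), with counts per library between 27 and 760. The log2 fold change was 1.89 ± 0.36 in WT (SE, edgeR, adjusted p = 0.00258) and 2.75 ± 0.38 in KO (adjusted p = 0.000117). Averaged it was 2.32 ± 0.26 (adjusted p = 3.54e-06), and it stayed between 2.19 and 2.42 with any 1 renal library left out. The genotypes' diet effects differed by 0.86 ± 0.50 on the log2 scale, with an interval of -0.13 to 1.84 (edgeR, adjusted p = 1.00).

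The partner chain Col8a2 was rare in the kidney, at 0.380 ± 0.136 FPM under SFD and 0.440 ± 0.251 under HFD (SD, n = 10), a log2 change of 0.16 ± 0.28 that was not called. Per kb, the median Col8a1 to Col8a2 ratio was 4.16 in SFD kidneys (range 2.41 to 15.9) and 23.9 in HFD kidneys (range 8.43 to 107), with 3 to 25 counts of Col8a2 per library behind it. In the aorta the mean ratio was 0.749 ± 0.266 by exon length (SD, n = 20). With transcript lengths it was 1.11, so which chain stood higher there depended on the annotation.

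Col27a1 rose in both genotypes from a higher level. WT SFD kidneys (a16 to a20) held 153, 106, 202, 149 and 129 FPM, and WT HFD kidneys (a11 to a15) 377, 245, 212, 205 and 234 FPM. KO SFD kidneys (a6 to a10) held 137, 143, 128, 85.2 and 116 FPM, and KO HFD kidneys (a1 to a5) 244, 260, 276, 169 and 266 FPM. Within each genotype the diets did not overlap, although KO HFD library a4 lay below WT SFD library a18. The log2 fold change was 0.78 ± 0.19 in WT (SE, edgeR, adjusted p = 0.0140), 1.00 ± 0.19 in KO (adjusted p = 0.00220) and 0.89 ± 0.13 averaged (adjusted p = 8.48e-05). The summed fibrillar chains ranged from 177 to 268 FPM under SFD and from 302 to 505 FPM under HFD. Without Col27a1 these sums overlapped, with 51.6 to 162 FPM under SFD and 93.4 to 166 FPM under HFD. Col27a1 alone also overlapped between the diets over both genotypes, through a4 and a18. Only the whole fibrillar sum separated all HFD from all SFD kidneys.

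Col3a1, the chain of type III collagen, passed only on average over genotypes. It went from 21.8 ± 8.45 to 35.7 ± 9.26 FPM (SD, n = 10), with 8.40 to 31.7 FPM under SFD and 24.7 to 51.9 FPM under HFD. The diets overlapped in part. The log2 fold change was 0.71 ± 0.23 (SE, edgeR, adjusted p = 0.0394). The call was lost when any 1 of a16, a13, a14, a6, a7, a9, a2, a3 or a4 was left out, with adjusted p between 0.0517 and 0.0698.

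The type I chains were higher under HFD without passing the adjusted test. Col1a1 went from 12.4 ± 4.68 to 16.7 ± 3.78 FPM (SD, n = 10), a log2 change of 0.43 ± 0.20 (edgeR, adjusted p = 0.152). Col1a2 went from 36.0 ± 12.6 to 44.2 ± 6.17 FPM, a log2 change of 0.29 ± 0.18 (adjusted p = 0.285). Leaving out a17 and a18, the WT SFD libraries at the top and bottom of most marker lists, gave 9 called members in place of 7, with Col1a1 and the fibril-associated Col14a1 added. The share of all genes called in that setting was not recorded, and leaving out any 1 library gave 5 to 10 called members. The 9 are therefore not evidence of a type I rise.

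Col5a2, a chain of type V collagen, which initiates and limits the width of type I fibrils, fell. WT SFD kidneys (a16 to a20) held 24.3, 32.7, 18.5, 20.3 and 26.2 FPM and WT HFD kidneys (a11 to a15) 13.2, 8.19, 18.7, 18.8 and 10.3 FPM. KO SFD kidneys (a6 to a10) held 30.8, 25.1, 24.0, 19.7 and 21.2 FPM and KO HFD kidneys (a1 to a5) 8.11, 12.1, 13, 12.6 and 10.7 FPM. Only WT SFD library a18, at 18.5 FPM, lay within the HFD range. The log2 fold change was -0.82 ± 0.21 in WT (SE, edgeR, adjusted p = 0.0193), -1.10 ± 0.21 in KO (adjusted p = 0.00241) and -0.96 ± 0.15 averaged (adjusted p = 0.000109). The WT call was lost without a17 or without a15, with adjusted p of 0.0540 to 0.0581. The partner chain Col5a1 went from 8.39 ± 3.40 to 9.81 ± 1.95 FPM and was not called (log2 change 0.22 ± 0.21).

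The fibril-associated chains Col19a1 and Col16a1 fell as well. Col19a1 went from 3.82 ± 1.42 to 1.59 ± 0.794 FPM in WT and from 3.12 ± 0.942 to 1.42 ± 0.431 FPM in KO (SD, n = 5). The WT HFD range ran from 1.10 to 2.996 FPM, with library a14 at the top, and the WT SFD range from 2.36 to 5.34 FPM. The log2 fold change was -1.27 ± 0.31 in WT (SE, edgeR, adjusted p = 0.0148), -1.14 ± 0.31 in KO (adjusted p = 0.0333) and -1.20 ± 0.22 averaged (adjusted p = 0.000615). The KO call was lost without any 1 of a7, a9, a10, a1, a2 or a4, with adjusted p between 0.0538 and 0.0965, and without the near-identical libraries (adjusted p = 0.079).

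Col16a1 was at 25.8 ± 3.23 FPM in KO SFD and 15.3 ± 2.42 FPM in KO HFD kidneys (SD, n = 5), which did not overlap, and the log2 fold change was -0.75 ± 0.14 (SE, edgeR, adjusted p = 0.00184). In WT it was at 22.0 ± 4.92 and 17.7 ± 1.79 FPM, with a log2 change of -0.32 ± 0.14 that was not called (adjusted p = 0.209). The difference of -0.43 ± 0.20 between these effects did not pass (edgeR, adjusted p = 1.00), so a genotype dependence was not shown. Averaged, Col16a1 fell by 0.53 on the log2 scale (SE 0.10, adjusted p = 0.000673).

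Col18a1 was the only basement membrane chain called. It went from 129 ± 20.2 to 155 ± 13.6 FPM (SD, n = 10), a log2 change of 0.27 ± 0.08 (SE, edgeR, adjusted p = 0.0328). The call was lost without any 1 of a13, a6, a1 or a4, with adjusted p of 0.0540 to 0.0632, and without the near-identical libraries (adjusted p = 0.0676). The 4 type IV chains had averaged log2 changes between -0.08 and 0.15, with SE from 0.11 to 0.20, and none passed. The type VI chains Col6a1, Col6a2 and Col6a3 had log2 changes of 0.37 ± 0.18, 0.45 ± 0.18 and 0.33 ± 0.17, none called.

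**Figure D2:**
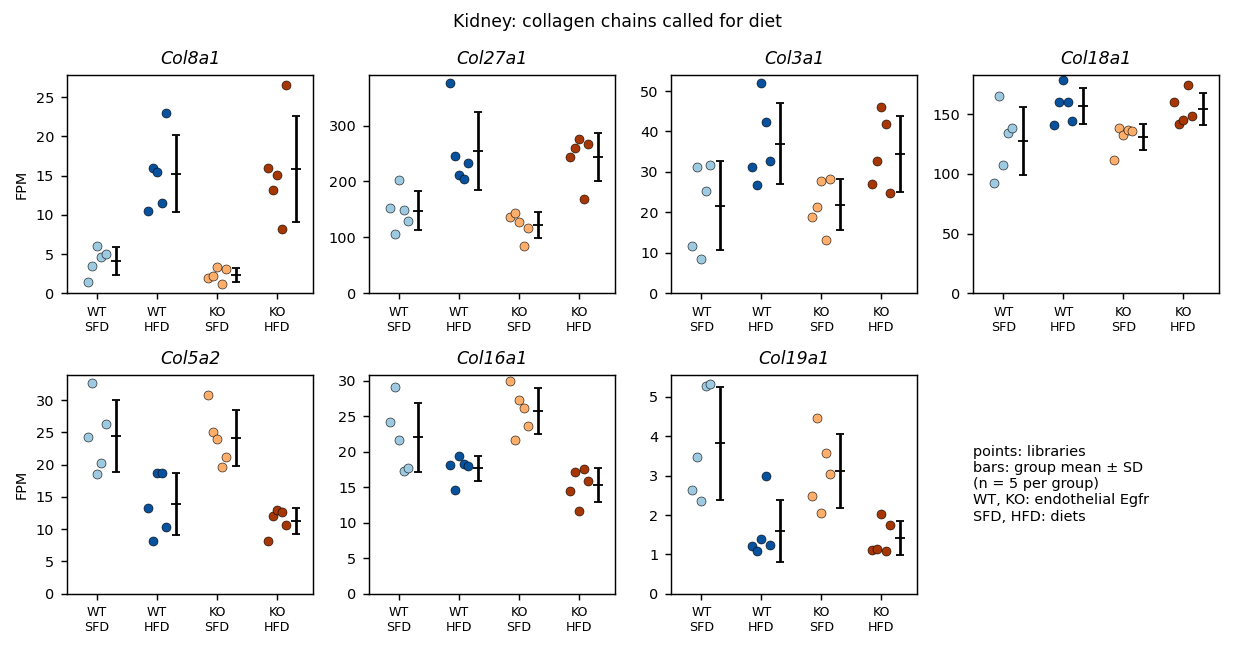
FPM of the 7 chains called for diet in the kidney, 1 point per library, with the group mean ± SD (n = 5) as bars, for both diets within WT and then within KO. For Col8a1 the 10 HFD points lie between 8.24 and 26.6 FPM, above all SFD points, while for Col3a1 and Col18a1 the diets overlap in part.

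Some cell type markers also changed under HFD averaged over genotypes, a comparison in which 16.4% of the 15943 renal genes tested were called. With so few genes a list, the counts below do not by themselves set a list apart from that share. Of 6 tested fibroblast markers 4 rose under HFD (Dpt, Lum, Serpinf1 and Pi16), with a median log2 fold change of 0.73. The summed list, in which Clec3b on chromosome 9 was at 0, ranged from 24.5 to 68.8 FPM in WT SFD, 56.5 to 86.7 in WT HFD, 43.9 to 58.9 in KO SFD and 44.7 to 85.7 in KO HFD kidneys. Of 5 tested mesangial and pericyte markers only Serpine2 rose, and of 7 macrophage and lymphocyte markers Lyz2 and Cd68 did. Of 6 proximal tubule markers 1 rose and 2 fell (Slc27a2, Slc5a2 and Slc22a6 were called), and the summed list ranged from 11630 to 15490 FPM. Of 7 adipocyte markers Lep rose, and the median log2 fold change of that list was 0.78 averaged, -0.36 in WT and 2.34 in KO. Of 6 podocyte and 8 endothelial markers 0 were called by edgeR. Their part in the collagen results was not tested.

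Genes that make, process and break down collagen were examined from lists by role. Their counts of calls stand beside the 16.4% of all renal genes called for diet averaged over genotypes, and with so few genes a list they do not set any list apart. Of 15 tested genes for hydroxylation, folding and secretion, 2 rose and 2 fell under HFD averaged over genotypes. Serpinh1, the collagen chaperone HSP47, rose from 71.0 to 95.2 FPM, a log2 change of 0.42 ± 0.07 (SE, edgeR, adjusted p = 0.000405), and the prolyl 3-hydroxylase P3h1 by 0.18 ± 0.05. Mia3, which helps load collagen into transport carriers, fell by 0.33 and the prolyl 4-hydroxylase subunit P4ha2 by 0.17 on the log2 scale.

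Of 9 genes for propeptide cleavage and cross-linking 2 rose. They were the procollagen C-proteinase Bmp1, with a log2 change of 0.36 ± 0.09, and the lysyl oxidase Loxl2, with 0.65 ± 0.22 (edgeR, adjusted p = 0.0486). Of 6 fibril-associated proteoglycans and Sparc, Lum rose from 1.07 to 2.77 FPM, a log2 change of 1.36 ± 0.23 (adjusted p = 0.000254), Sparc rose by 0.49 ± 0.12 and Fmod fell by 0.41. Lum is also on the fibroblast list. Of 6 tested genes from a list for collagen degradation that also holds the inhibitors Timp2 and Timp3, Mmp2, a gelatinase, rose by 0.67 ± 0.18 and Ctsk, a collagen-cleaving cathepsin, by 0.62 ± 0.20. Of 6 tested receptors 0 passed by edgeR, also at an unadjusted p under 0.05, and Itga1 had the smallest p (0.0707).

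In the aorta no collagen member passed for diet by edgeR's quasi-likelihood test. The count was 0 of 27 in WT, beside 0.0132% of 15122 genes, 0 in KO, beside 0% of genes, and 0 averaged over genotypes, beside 0.0529%. At an unadjusted p under 0.05, Col9a1 and Col22a1 were lower in all of these, 2 of 27 beside 2.61%, 4.56% and 6.70% of genes. DESeq2's Wald test and edgeR's likelihood ratio test each gave 0 in WT and in KO and 1 averaged, Col9a1. The median log2 change of the 27 members averaged over genotypes was -0.02. Col1a1 had a log2 change of -0.08 with an interval of -0.46 to 0.31, Col3a1 of -0.01 with -0.25 to 0.23, and Col4a1 of 0.11 with -0.25 to 0.47.

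Col9a1, a fibril-associated chain of cartilage-type fibrils, had few counts. It measured 1.27, 0.790, 0.264, 0.810 and 1.01 FPM in WT SFD aortas (R-1 to R-5) and 0.201, 0.330, 0.117, 0.503 and 0.410 FPM in WT HFD aortas (R-6 to R-10). KO SFD aortas (R-11 to R-15) measured 0.465, 1.27, 0.500, 0.695 and 0.752 FPM and KO HFD aortas (R-16 to R-20) 0.273, 0.438, 0.333, 0.320 and 0.197 FPM. The diets overlapped in WT and not in KO, and the highest values were those of the near-identical libraries R-1 and R-12. The averaged log2 change was -1.32 ± 0.30 (SE, edgeR, adjusted p = 0.207), and -1.06 without these libraries (adjusted p = 0.711). Over its alternatives the adjusted p ran from 0.0163 to 0.711. Col22a1 was at 1.84 ± 0.320 FPM under SFD and 1.30 ± 0.316 under HFD (SD, n = 10), a log2 change of -0.50 ± 0.16 (adjusted p = 0.487).

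**Figure D3:**
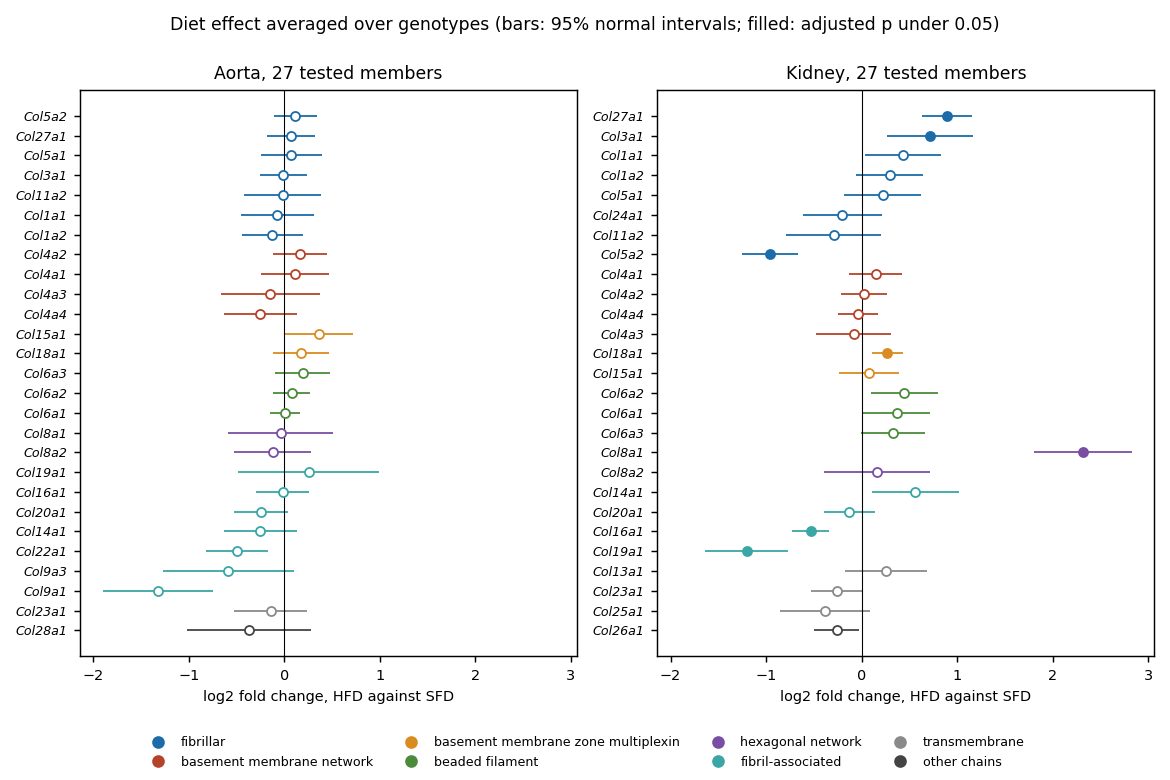
Log2 fold change of HFD against SFD averaged over genotypes for the 27 tested members of each tissue, with 95% normal intervals as bars, coloured by class and filled where the adjusted p is under 0.05. The kidney shows 4 chains called up and 3 called down, with Col8a1 at 2.32, and the aorta shows no called chain.

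A test of the diet effect between the tissues, added after the data were seen, asked whether these effects differed. In 1 fit of all 40 libraries, 4 of 31 tested members differed beside 6.50% of 17514 genes, and 7 of 31 at an unadjusted p under 0.05 beside 18.9%. The aortic minus renal difference was -2.35 ± 0.39 for Col8a1 on the log2 scale (SE, edgeR, adjusted p = 0.000169), and aortic Col8a1 was at 18.7 ± 8.42 FPM under SFD and 18.3 ± 7.80 under HFD (SD, n = 10). For Col27a1 the difference was -0.80 ± 0.19 (adjusted p = 0.00762) and for Col5a2 1.08 ± 0.19 (adjusted p = 0.000302). For Col19a1 it was 1.47 ± 0.45 (adjusted p = 0.0438). That call was lost when any 1 of 24 libraries was left out, with adjusted p up to 0.0989. It was also lost without the near-identical libraries (adjusted p = 0.205).

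No collagen member passed for the Egfr genotype in either tissue. In the aorta edgeR called 0 of 27 under SFD, beside 0% of genes, 0 under HFD, beside 0%, and 0 averaged over diets, beside 0.0198%. Unadjusted, 0 of 27 had a p under 0.05 in each, beside 2.28%, 5.85% and 8.78% of genes. In the kidney the calls were 0 of 27 under SFD, HFD and averaged, beside 0% of genes each time, and unadjusted 1 of 27 each time, beside 2.67%, 3.42% and 4.82%. The diet effect differed between genotypes for 0 members in either tissue, beside 0% of genes. Unadjusted this was 0 of 27 in the aorta beside 0.840% and 1 of 27, Col16a1, in the kidney beside 1.79%. DESeq2's Wald test called 0 members in all 8 of these comparisons. Each pair of near-identical libraries carries a WT and a KO label, and without them the counts were still 0.

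The single renal members under an unadjusted p of 0.05 belonged to type VIII. Col8a1 was at 2.36 ± 0.923 FPM in KO SFD and 4.13 ± 1.79 FPM in WT SFD kidneys (SD, n = 5), a log2 difference of -0.80 ± 0.37 (edgeR, adjusted p = 1.00). Under HFD the difference for Col8a1 was 0.05 ± 0.34. Col8a2 had a log2 difference of -0.83 ± 0.39 under HFD (edgeR, adjusted p = 0.814), at means of 0.310 and 0.571 FPM. For the abundant Col4a4 the renal genotype difference averaged over diets was -0.10 with an interval of -0.31 to 0.11, and for Col4a1 -0.04 with -0.32 to 0.24.

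Variation between aortas of 1 group was wide and shared by many chains. The members summed to 11140 to 21740 FPM, and R-5 (WT SFD), R-10 (WT HFD) and R-20 (KO HFD) held the highest sums of their groups. Col1a1 was at 2889, 1983 and 2086 FPM in these 3 libraries and between 916 and 1725 FPM in the other 17. Col18a1 was at 2956, 2962 and 3024 FPM there and between 1426 and 2170 FPM elsewhere. Col11a2, Col20a1 and Col27a1 did not share this, and were below the median library in all 3. These 3 libraries also stood at an end of their group for some marker sums. Each was the highest of its group for chondrocyte markers, with 179, 142 and 155 FPM in R-5, R-10 and R-20, and for Schwann cell markers, with 38.0, 39.5 and 34.3 FPM. Each was the lowest of its group for adipocyte markers, with 181, 84.7 and 104 FPM, and for skeletal muscle markers, with 5.004, 3.57 and 3.51 FPM. Other libraries reached similar sums. Chondrocyte markers were at 162 FPM in R-1 and in R-12, above R-10 and R-20, and skeletal muscle markers at 5.17 FPM in R-15. In the smooth muscle, endothelial and osteoblast lists none of R-5, R-10 and R-20 was the highest or lowest of its group. Fibroblast markers were the highest of the group in R-5 and R-10 but not in R-20, and macrophage and lymphocyte markers the lowest in R-10. The part of these cell types in the collagen levels was not tested. Col2a1, the main cartilage chain, was at 2.77 FPM in R-5. R-16 (KO HFD) had the highest macrophage and lymphocyte marker sum, 2000 FPM, beside a median of 217, and its member sum of 11250 FPM was the lowest of its group. Smooth muscle markers (6 of 8 above 0, with Cnn1 and Tagln at 0) summed to 27050 to 42850 FPM in all aortas. Without R-5, R-10 and R-20, the aortic calls for diet and genotype were still 0.

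**Figure D4:**
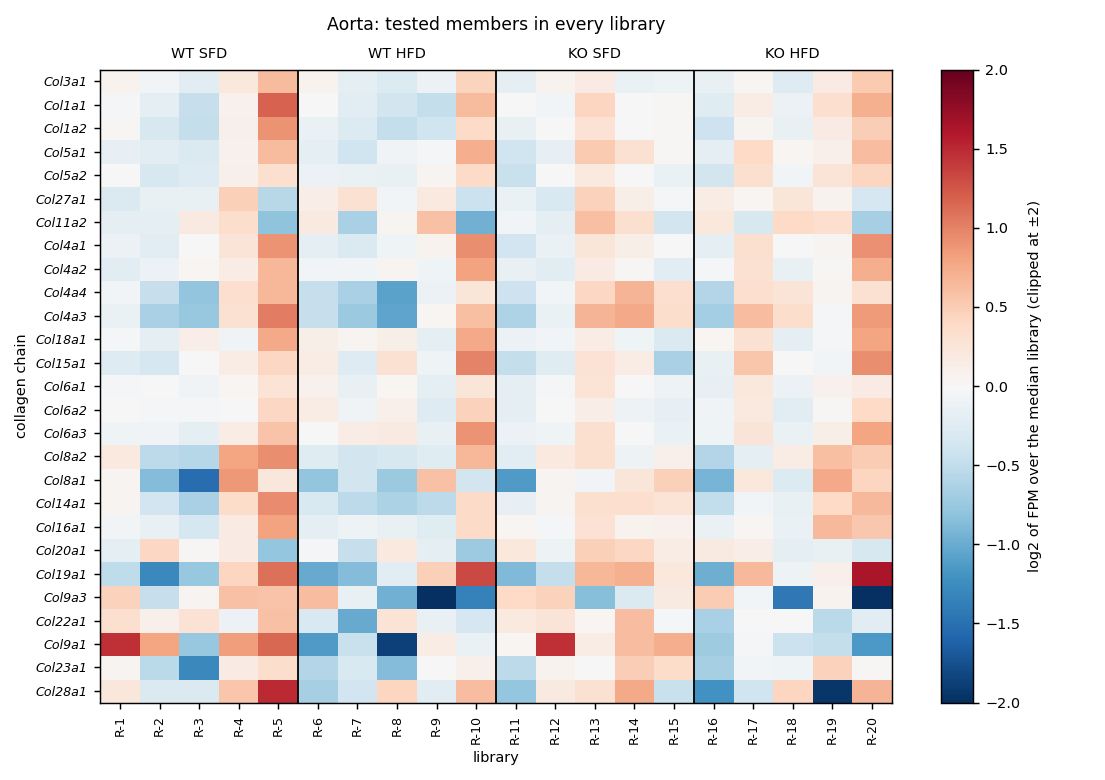
Heat map of the 27 tested members (vertical axis) in the 20 aortic libraries (horizontal axis, by group), as log2 of FPM over the median library, clipped at ±2. Libraries R-5, R-10 and R-20 are red across most fibrillar, type IV and multiplexin chains, and no group stands apart as a whole.

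Several members are neighbours within 100 kb, and their levels were correlated over the 20 libraries of a tissue, with permutation p from 100000 resamples and adjustment over 9 relations. The permutation p is against no correlation at all. Correlations between members that are not neighbours were not computed, and many aortic chains varied together between libraries. A high r below is therefore not shown to be particular to neighbours. Col4a3 and Col4a4 lie 71 bases apart on opposite strands of chromosome 1 (Col4a4 at 82448423 to 82586849, Col4a3 at 82586921 to 82722059, GRCm38). Their log2 levels gave r = 0.97 and rho = 0.94 in the aorta and r = 0.94 and rho = 0.94 in the kidney (permutation p = 1e-05, the smallest these resamples can give, adjusted 1.50e-05 for r and 1.80e-05 for rho). Without the 2 libraries farthest from the median, r was 0.96 and 0.92. Col6a1 and Col6a2, 85.2 kb apart on chromosome 10, gave r = 0.88 and rho = 0.91 in the aorta and r = 0.96 and rho = 0.96 in the kidney (permutation p = 1e-05 each), and r = 0.84 and 0.91 without the 2 farthest libraries.

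Col4a1 and Col4a2 lie head to head on chromosome 8, with start sites 21 bases apart and annotated genes that overlap by 22 bases. They gave r = 0.93 and rho = 0.74 in the aorta (permutation p = 1e-05 and 0.00026) and r = 0.96 and rho = 0.90 in the kidney (permutation p = 1e-05 each). Without the 2 farthest libraries r was 0.86 and 0.94. Their start regions are shown because both chains enter the same trimers and the windows overlap. The Col4a1 window is chr8:11312777-11313076 on the minus strand and the Col4a2 window chr8:11312555-11312854 on the plus strand, and 78 bases are common to both. Capitals mark the CCAAT box (CCAAT, or ATTGG on the other strand) and the GC box (GGGCGG or CCGCCC).
Col4a1: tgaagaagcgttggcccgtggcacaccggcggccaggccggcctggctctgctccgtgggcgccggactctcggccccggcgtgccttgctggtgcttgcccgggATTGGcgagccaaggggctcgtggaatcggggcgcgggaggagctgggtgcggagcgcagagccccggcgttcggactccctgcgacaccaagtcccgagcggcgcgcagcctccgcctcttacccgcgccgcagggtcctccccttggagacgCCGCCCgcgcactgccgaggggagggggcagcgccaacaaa
Col4a2: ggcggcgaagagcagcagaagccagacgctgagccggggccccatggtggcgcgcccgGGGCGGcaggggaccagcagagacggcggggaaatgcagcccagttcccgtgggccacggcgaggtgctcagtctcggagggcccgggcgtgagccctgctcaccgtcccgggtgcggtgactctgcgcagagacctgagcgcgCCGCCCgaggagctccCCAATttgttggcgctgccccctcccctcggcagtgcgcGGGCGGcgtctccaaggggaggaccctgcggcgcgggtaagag
The Col4a1 window holds 1 CCAAT box and 1 GC box, and the Col4a2 window 1 and 3. A CCAAT box stood in 37.4% of all promoter windows and in 8 of the 29 member windows.

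Col3a1 and Col5a2, 24.6 kb apart on chromosome 1, behaved differently in the tissues. In the aorta they gave r = 0.79 and rho = 0.78 (permutation p = 2e-05 and 0.00022, adjusted 2.57e-05 and 0.00033), and 0.73 without the 2 farthest libraries. In the kidney r was -0.26 and rho -0.24 (permutation p = 0.273 and 0.308). There the diets form separate clusters, because Col3a1 rose and Col5a2 fell under HFD. On deviations from the group means the renal r was 0.57 (permutation p = 0.0082, adjusted 0.00923). These deviations were resampled over all renal libraries and not within groups, so this p can be too small. Without the near-identical libraries r ran from 0.88 to 0.97 for the pairs of types IV and VI, and for Col3a1 and Col5a2 it was 0.79 in the aorta and -0.31 in the kidney. Col9a1 and Col19a1, 9.21 kb apart, gave r = 0.06 and rho = 0.12 in the aorta (permutation p = 0.791 and 0.608).

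**Figure D5:**
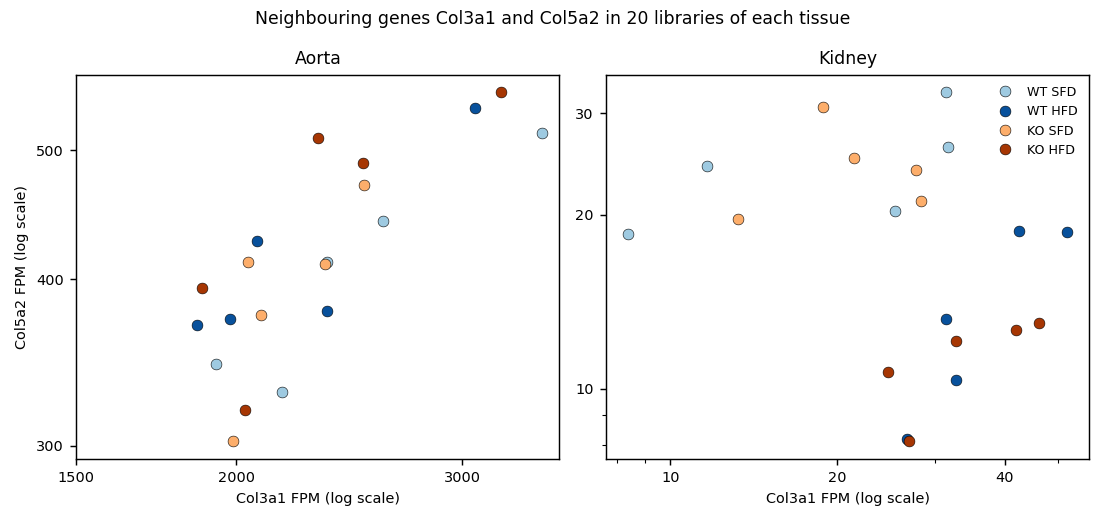
Col5a2 against Col3a1 FPM (both log axes) in the 20 libraries of each tissue, 1 point per library, coloured by group. Aortic points rise along a line (r = 0.79), and renal HFD points lie to the lower right of the SFD points, with r = 0.57 on deviations from the group means.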

How the data were processed

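RNA of whole mouse aortas and kidneys was sequenced with paired-end reads by a service provider (Illumina HiSeq). The authors deposited 1 table of raw counts per gene and tissue, made with featureCounts on mm10 (GRCm38). The submitters' processing notes name HISAT2 2.1.0, the study's methods another mapper. The strand setting and the sex of the mice are not given in the sources used here. The tables held 0 columns of other per-sample values. Groups followed the sample labels. The labels link no libraries to mice, so p-values measure the spread between libraries.

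Counts were tested in edgeR 4.0.16 (R 4.3.3) with TMM scaling, filterByExpr by group and a robust quasi-likelihood F test, with all 20 libraries of a tissue in 1 fit and Benjamini-Hochberg adjustment over all 15122 (aorta) or 15943 (kidney) tested genes. Aortas and kidneys were compared in separate fits with TMM over the libraries of both tissues. A gene was called at an adjusted p under 0.05. Of the members, 27 passed the filter in each tissue; Col13a1, Col11a1, Col10a1 and Col2a1 (aorta) and Col9a3 (kidney) did not. SE was the fold change over the root of F, and intervals were 95% normal intervals. Exon lengths came from the GENCODE annotation. The scripts were checked on simulated counts.

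Alternatives were DESeq2 1.42.0 (Wald test), its size factors in edgeR, edgeR's likelihood ratio test, no count filter, added limits of fold change 1.5 and 5 FPM, a mean of 1 CPM for membership, only the compared groups, and leaving out each library or the near-identical ones. Leaving out R-5, R-10 and R-20 or a17 and a18, and the test of diet between tissues, were added after the data were seen. Values by library or range were given for members called, with 1 of the 3 smallest p-values where fewer than 3 were called, or among the 6 highest per kb; other genes were named if called or with the smallest p of their list. Members, classes and lists were chosen with earlier results of these data known.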

Additional observations from a re-analysis of the deposited data

Results flagged for a closer look

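Among 124 groups of 5 libraries, 12 held a library far from the others by Dixon's criterion, 10 as the highest and 2 as the lowest. The criterion passes about 1 in 20 groups of independent normal values. These groups are different chains in the same libraries, and many chains vary together, so 12 of 124 cannot be read against that rate. In WT HFD aortas R-10 stood alone for Col14a1 (429 FPM, others 213 to 267), Col16a1 (92.0 FPM), Col18a1 (2962 FPM), Col4a1 (1798 FPM, others 773 to 999) and Col8a2 (20.7 FPM). In WT SFD aortas R-5 did so for Col1a1 (2889 FPM, others 926 to 1346) and Col18a1 (2956 FPM), and in KO SFD aortas R-13 for Col1a1 (1725 FPM, others 1232 to 1291). In the kidney the single libraries were a12 for Col16a1 (14.6 FPM, WT HFD, lowest), a6 for Col18a1 (112 FPM, KO SFD, lowest), a14 for Col19a1 (2.996 FPM, WT HFD) and a11 for Col27a1 (376.6 FPM, WT HFD).

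The effect of HFD differed between aorta and kidney for 4 of 31 tested chains by edgeR's test of the difference, beside 6.50% of 17514 genes. The aortic minus renal log2 change was 1.47 for Col19a1, 1.08 for Col5a2, -0.80 for Col27a1 and -2.35 for Col8a1. The Col19a1 call was lost in 26 of 45 settings.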

How the results depend on the processing

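Counts of called members kept their size within 1.5 times under most settings. Exceptions were 1 aortic member, Col9a1, for diet averaged over genotypes by DESeq2's Wald test and 1 by edgeR's likelihood ratio test in place of 0. In the kidney there were 4 (Col27a1, Col3a1, Col5a2 and Col8a1) in place of 7 with the added limits of fold change and 5 FPM, and 1 (Col8a1) in place of 4 for WT when only the compared groups entered the fit; the cause was not tested. Leaving out 1 library gave 3 to 5 renal calls for diet in WT, 4 to 5 in KO and 5 to 10 averaged, 28 to 29 for tissue, 3 to 5 for diet between tissues, and 0 otherwise. The share of all genes called under each setting was not recorded. Each fold change of a named member was checked in each setting. Of these checks, 1513 kept direction and side of the threshold, 54 lost the call, 2 gained it and 0 turned. Many of the checks were of results not called in the main fit, which could not lose a call. Among the called results, Col19a1 for diet between tissues lost it in 26 of 45 settings, and renal Col3a1 averaged over genotypes in 10 of 26. The renal correlation of Col3a1 and Col5a2 turned from -0.26 to 0.57 on deviations from group means, by removing the diet difference. No paired analysis was possible because the labels number every library separately and link no mice. The counts behind rare chains limit what is detectable: an aortic library held 2 to 45 counts of Col9a1.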
